A study of Mus musculus with 2 samples.

Results

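Genes of blood vessel endothelium, lymphatic endothelium and angiogenic signalling were examined in RNA of the entire uterus of 2 pregnant C57BL/6 mice, taken at day 4. The members were 40 symbols fixed by name, and 39 of them matched a row among the 22740 genes of the deposited table. The symbol Cldn5x matched none. The labels give 1 group, titled WT, with no treatment and no second genotype, so the 2 libraries, uterus 1 (WT1) and uterus 2 (WT2), describe levels and the spread between animals. Where a gene is given a pair of values, uterus 1 comes first. Whole uterus holds luminal and glandular epithelium, stroma, smooth muscle, vessels and blood cells together, and fewer cells of a type cannot be told apart from less RNA per cell. Values are RPKM, a read density per transcript length and library size, as the authors deposited it, and errors are SDs over the 2 uteri. Because RPKM is scaled to length, levels were set side by side between genes. Effects other than length, such as base composition or overlapping genes, were not removed here.

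Blood vessels grow when VEGF ligands bind tyrosine kinase receptors on endothelial cells, with neuropilins as co-receptors, while VEGF-C and VEGF-D act mainly on the lymphatic receptor VEGFR-3. Angiopoietins and the Tie receptors then set how stable and how leaky the new vessel is. In the mouse uterus, vessel permeability increases at the place of embryo attachment and vessels are remodelled as the decidua forms.

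All but 3 of the matched members were expressed above a low level. At a threshold of 1 RPKM in both uteri 36 of 39 members were detected, against 58.4% of all genes. The median over the matched members was 12.5 and 12.9 RPKM, and over all detected genes 11.4 RPKM in each uterus. The exceptions were Prox1, Sele and Madcam1. At 10 RPKM or more in both uteri there were 21 members, against 30.4% of all genes. Behind the values stood 10484 reads in uterus 1 and 10467 in uterus 2, recovered from the RPKM as whole numbers. The median member held 135 and 159 reads.

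**Figure D1:**
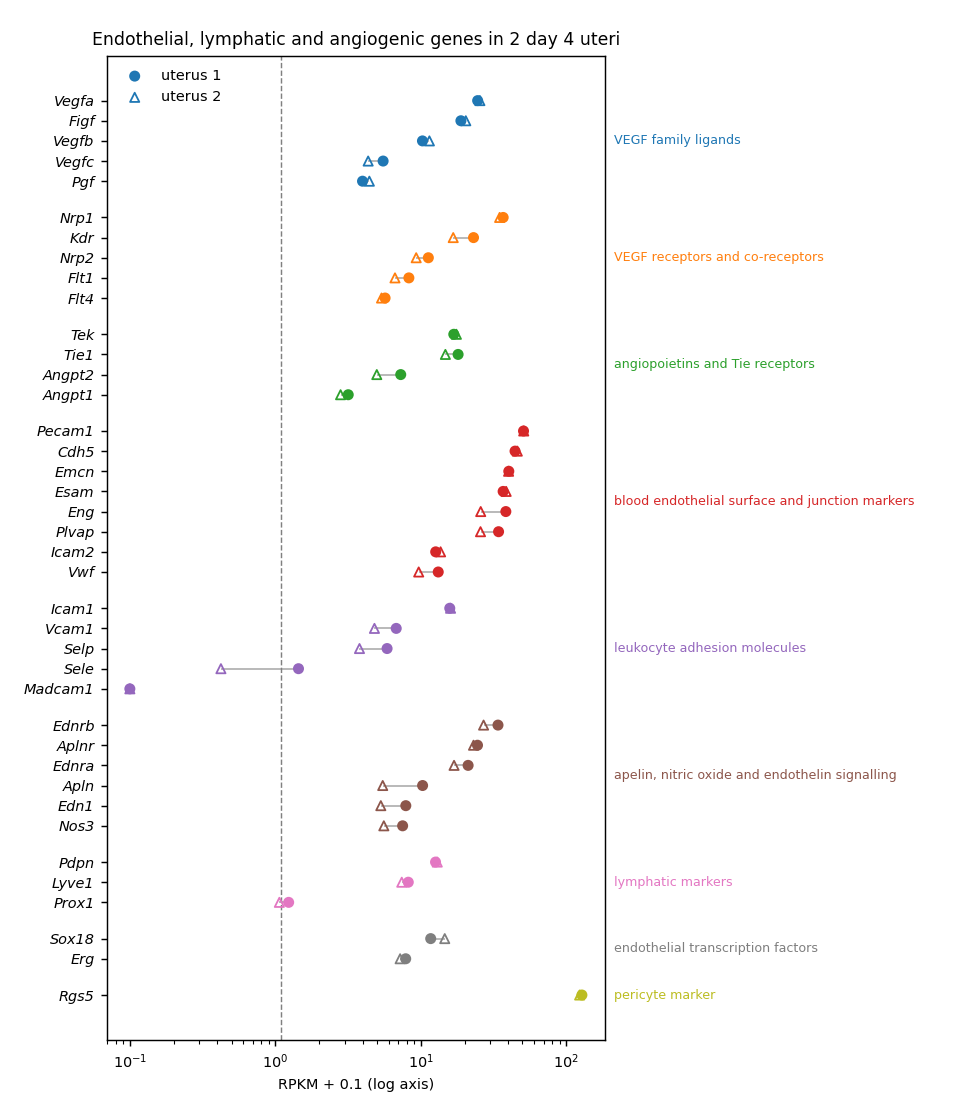
RPKM plus 0.1 (log axis) of each matched member in uterus 1 (filled circles) and uterus 2 (open triangles), grouped by role, with a dashed line at the detection threshold of 1 RPKM. Rgs5 lies highest, Madcam1 is listed at 0 in both uteri, and Sele and Prox1 lie on both sides of the threshold.

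Among the VEGF ligands, Vegfa was the most expressed and differed little between the animals. Vegfa, the main blood vessel growth factor, lay at 24.5 and 25.4 RPKM on 392 and 451 reads (NM_001110268, chromosome 17, 46153943 to 46162112 on mm9). Figf, the gene of the lymphatic growth factor VEGF-D, followed at 18.8 and 20.3 RPKM. Vegfb, a ligand of VEGFR-1 linked to heart and metabolic tissue, lay at 10.2 and 11.4 RPKM. These 3 kept the same order in both uteri, and their ranges did not overlap. Vegfc, the other lymphatic ligand, lay at 5.41 and 4.25 RPKM. Pgf, the placental growth factor, lay at 3.88 and 4.33 RPKM on 25 and 31 reads. The ranges of Vegfc and Pgf overlapped, so their order is not given. Vegfa exceeded Vegfb 2.41-fold in uterus 1 and 2.23-fold in uterus 2, Pgf 6.32-fold and 5.86-fold, and Vegfc 4.53-fold and 5.98-fold. The table has 1 row for each symbol, so the splice forms of Vegfa were not separated.

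The receptors lay in the order Nrp1, Kdr, Nrp2, Flt1 and Flt4 in both uteri, with no overlap between neighbours. Nrp1, a co-receptor that stroma and neurons use as well, lay at 36.7 and 34.7 RPKM. Kdr encodes VEGFR-2, the main signalling receptor for VEGF-A, and lay at 22.9 and 16.6 RPKM (NM_010612, chromosome 5, 76329299 to 76374453). Nrp2, the co-receptor more used by lymphatic endothelium, lay at 11.2 and 9.20 RPKM. By RPKM all 5 receptors were lower in uterus 2, as were 49.9% of all genes with a mean of 1 RPKM or more, but of the 5 only Kdr passed the test given further on. No ligand passed it, and 4.92% of all genes did. Flt1, VEGFR-1, which binds VEGF-A tightly and has a soluble decoy form, lay at 8.18 and 6.55 RPKM. Its level was 0.357 of that of Kdr in uterus 1 and 0.394 in uterus 2. Flt4, VEGFR-3 of lymphatic vessels, was lowest at 5.58 and 5.27 RPKM on 125 and 131 reads. The soluble and membrane forms of Flt1 share 1 row and were not told apart.

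Among the angiopoietin genes the receptors exceeded the ligands. Tek, the receptor Tie2, lay at 16.8 and 17.5 RPKM. Tie1, its partner without a known high-affinity ligand, lay at 18.0 and 14.7 RPKM. Their order changed between the animals. Angpt2, which destabilises vessels and mostly opposes Angpt1 at Tie2, lay at 7.18 and 4.88 RPKM. Angpt1, the stabilising agonist, lay at 3.07 and 2.71 RPKM on 48 and 47 reads. The ratio of Angpt1 to Angpt2 was 0.428 in uterus 1 and 0.555 in uterus 2, below 1 in both.

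The surface and junction markers of blood endothelium formed the highest of the groups with more than 1 member, with a median of 34.8 ± 3.82 RPKM (SD, n = 2) over its 8 matched members. Pecam1 (CD31), an adhesion molecule of endothelial junctions and platelets, lay at 50.7 and 50.9 RPKM on 643 and 716 reads. Cdh5, VE-cadherin of the adherens junction, lay at 44.4 and 46.0 RPKM. Emcn, a sialomucin of capillary and venous endothelium, lay at 40.17 and 40.04 RPKM. Esam, a tight junction adhesion molecule, lay at 36.7 and 38.5 RPKM. These 4 had a coefficient of variation of at most 3.40% between the uteri. Icam2, a constitutive endothelial adhesion molecule, lay at 12.6 and 13.6 RPKM on 55 and 66 reads.

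The other 3 markers of that group were lower in uterus 2. Eng encodes endoglin, a TGF-beta co-receptor of endothelium that stromal cells also carry, and lay at 38.3 and 25.7 RPKM on 525 and 391 reads (NM_007932, chromosome 2, 32502115 to 32538189). Plvap, which forms the diaphragms of fenestrae and caveolae, lay at 34.2 and 25.6 RPKM. Vwf, the von Willebrand factor of endothelial storage granules and platelets, lay at 13.1 and 9.57 RPKM on 443 and 360 reads. In Eng, exons overlap those of Fpgs on the opposite strand, which lay at 14.2 and 11.8 RPKM, and whether the counting used strand is not given in the sources used here.

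The upstream sequence of Emcn and Esam, which were steady between the uteri, and of the 2 members with the largest differences that passed the test is shown to give the letters behind the motif counts that follow. Each window holds the 250 bases before the deposited transcript start on NCBIM37 (mm9), written 5′ to 3′ on the strand of the gene. Capitals mark GGAA or its reverse complement TTCC, the core bound by ETS factors such as Erg. The windows are chr3:137003792-137004041 (plus strand) for Emcn, chr9:37335424-37335673 (plus) for Esam, chr2:32501865-32502114 (plus) for Eng and chrX:45388030-45388279 (minus) for Apln.
Emcn: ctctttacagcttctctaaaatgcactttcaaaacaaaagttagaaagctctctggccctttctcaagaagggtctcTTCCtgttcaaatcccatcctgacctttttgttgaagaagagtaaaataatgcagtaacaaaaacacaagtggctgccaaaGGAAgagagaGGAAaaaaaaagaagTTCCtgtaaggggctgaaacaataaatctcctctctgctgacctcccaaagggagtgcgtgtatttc
Esam: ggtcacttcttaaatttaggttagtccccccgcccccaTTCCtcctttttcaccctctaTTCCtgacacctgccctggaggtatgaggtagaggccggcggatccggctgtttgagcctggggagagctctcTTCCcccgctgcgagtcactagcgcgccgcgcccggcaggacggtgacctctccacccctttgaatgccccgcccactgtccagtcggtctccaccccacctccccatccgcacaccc
Eng: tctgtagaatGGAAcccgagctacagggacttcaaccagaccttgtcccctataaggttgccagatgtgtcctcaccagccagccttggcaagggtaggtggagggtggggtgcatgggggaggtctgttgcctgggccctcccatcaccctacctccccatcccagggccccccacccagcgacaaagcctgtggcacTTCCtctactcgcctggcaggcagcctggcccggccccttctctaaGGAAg
Apln: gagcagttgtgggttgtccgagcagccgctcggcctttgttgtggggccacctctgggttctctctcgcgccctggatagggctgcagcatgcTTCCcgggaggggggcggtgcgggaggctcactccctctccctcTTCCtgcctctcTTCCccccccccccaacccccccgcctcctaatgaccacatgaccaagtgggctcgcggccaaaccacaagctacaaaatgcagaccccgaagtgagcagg

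The motif counts put the members near other genes for the short ETS core and apart in CpG content. GGAA on either strand was in the windows of 38 of 39 members, and of 92.6% of the 22663 genes with a window. CCGGAA, which contains it, was in 3 members, against 15.3% of all genes. The SOX core ACAAT, on either strand, was in 13 members, against 24.7% of all genes. Among detected genes the same core was in 13 of 36 members and in 17.6% of 13278 genes. CCGGAA was in 3 of these 36 members and in 22.1% of these genes. The hypoxia response core ACGTG, on either strand, was in 5 members, against 17.7% of all genes, and Vegfa was among them. Among detected genes ACGTG was in 4 of 36 members and in 21.1% of genes. Also among detected genes, TATAAA was in 4 members and 4.21% of genes, and the GATA core AGATAA in 3 members and 5.74%. The median window held 6 CpG pairs in the members, against 10 in all genes and 16 in all detected genes. The median GC content was 57.6% in the members and 55.6% in all genes, and among detected genes 57.8% in the members and 60% in all. These counts describe letters in a window beside the annotated start, and no test was made of them.

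Adhesion molecules that capture leukocytes were the least expressed group, with a median of 4.73 ± 1.47 RPKM (SD, n = 2). Icam1, which endothelium, leukocytes and epithelium can carry, lay at 15.7 and 15.9 RPKM. Vcam1, a ligand of integrin alpha-4 beta-1 that stroma also makes, lay at 6.68 and 4.70 RPKM. Selp, P-selectin of endothelial granules and platelets, lay at 5.77 and 3.69 RPKM. Sele, the cytokine-induced E-selectin, lay at 1.34 and 0.323 RPKM on 15 and 4 reads. Madcam1, the mucosal vascular addressin, was listed at 0 in both. Rpl26, a ribosomal protein gene that cells in general use, is also listed at 0, so a listed 0 is not read as absence.

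In the vasoactive group the receptors again exceeded the ligands. Ednrb, the endothelin B receptor of endothelium and smooth muscle, lay at 33.8 and 26.9 RPKM (NM_001276296, chromosome 14, 104213832 to 104242918). Ednra, the contractile endothelin A receptor of smooth muscle, lay at 21.0 and 16.8 RPKM. The ratio of Ednra to Ednrb was 0.622 in uterus 1 and 0.625 in uterus 2, although both genes were lower in uterus 2. Edn1, the endothelin-1 precursor, lay at 7.79 and 5.21 RPKM on 70 and 52 reads. Aplnr, the apelin receptor of endothelium, lay at 24.4 and 22.9 RPKM. Apln, the apelin peptide gene used as a mark of sprouting tip cells, lay at 10.2 and 5.37 RPKM on 123 and 72 reads (NM_013912, chromosome X, 45378323 to 45388029). Aplnr therefore exceeded Apln 2.40-fold in uterus 1 and 4.27-fold in uterus 2, the most variable of the 14 ratios formed between members. Nos3, endothelial nitric oxide synthase, lay at 7.40 and 5.47 RPKM, and its exons overlap those of Atg9b on the opposite strand, which lay at 0.334 and 0.301 RPKM. By RPKM all 6 genes of this group were lower in uterus 2, against 49.9% of all genes. Of the 6, 2 passed the test, Apln and Ednrb. Over all genes 4.92% passed it, and 2.63% were called lower in uterus 2.

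The median over the lymphatic markers was 8.10 and 7.30 RPKM, below the 37.5 and 32.1 RPKM of the blood endothelial markers, although Pdpn lay in the range of Icam2 and Vwf. Pdpn, podoplanin, which lymphatic endothelium shares with stroma and mesothelium, lay at 12.5 and 12.9 RPKM. Lyve1, a hyaluronan receptor of lymphatic endothelium and of some macrophages, lay at 8.10 and 7.30 RPKM on 81 reads in each. Prox1, the transcription factor that sets lymphatic identity, lay at 1.14 and 0.966 RPKM on 18 and 17 reads. The defining factor was thus near the threshold while the broader markers were not. Relative to Pecam1, Lyve1 lay at 0.160 in uterus 1 and 0.143 in uterus 2, and Prox1 at 0.0224 and 0.0190.

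Sox18, a factor of arterial and lymphatic differentiation, lay at 11.6 and 14.5 RPKM, and Erg, an ETS factor of endothelial identity, at 7.77 and 7.11 RPKM. Sox18 exceeded Erg in both uteri. Rgs5, a G protein regulator of pericytes that smooth muscle can also express, was the highest member at 128 and 124 RPKM on 2072 and 2219 reads (NM_009063, chromosome 1, 171585632 to 171623657). It lay above 98.5% of all genes, and Pecam1 above 94.8%. Rgs5 exceeded Pecam1 2.52-fold and 2.43-fold.

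The next comparison asked whether the 2 libraries differed in the members by more than counting error. Recovered reads were compared by a two-sided exact binomial test with Benjamini-Hochberg adjustment over all 15146 genes tested. It compares these 2 libraries and no condition. Of 38 members tested, 6 differed at an adjusted p under 0.05, against 4.92% of all genes. All 6 were lower in uterus 2, where 2.63% of all genes were called lower and 2.28% higher. Calls come more easily with more reads: with 100 reads or more in each library, a bound chosen after the data were seen, 5 of 21 members and 8.18% of all genes differed.

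Apln differed most among the 6, with a log2 ratio of uterus 2 over uterus 1 of -0.92 from reads (95% counting interval -1.36 to -0.49, exact test, adjusted p 0.000833). Eng followed at -0.58 (-0.77 to -0.38, exact test, adjusted p 2.7e-07). The other 4 lay closer together. Kdr had -0.47 (exact test, adjusted p 0.000179), Vwf -0.45 (0.00069), Plvap -0.41 (0.0373) and Ednrb -0.33 (0.00737). With the smallest whole reads that the Plvap values allow, 66 and 55 in place of 264 and 220, its exact test gave an adjusted p of 0.542.

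Of the 8 blood endothelial markers 3 passed the test, against 4.92% of all genes and 8.18% of those with 100 reads or more in each library. Of these 3, Plvap did not pass with its smallest possible reads. Pecam1, Cdh5, Emcn and Esam, picked here because they were steady, lay near equality. The log2 ratio from reads was 0.00 for Pecam1 (95% counting interval -0.15 to 0.16), 0.05 for Cdh5 (-0.10 to 0.20), 0.00 for Emcn (-0.27 to 0.26) and 0.07 for Esam (-0.17 to 0.31). For Emcn as few as 75 and 83 reads are possible in place of 225 and 249, and its interval would then be wider. Rgs5 had -0.05 (-0.14 to 0.04). For Rgs5 as few as 296 and 317 reads are possible in place of 2072 and 2219. For Cdh5 as few as 339 and 390 are possible in place of 678 and 780. Both intervals would then be wider, although the reads used rest on an annotated length. Relative to Pecam1, Kdr lay at 0.452 in uterus 1 and 0.326 in uterus 2, whereas Cdh5 lay at 0.874 and 0.903.

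**Figure D2:**
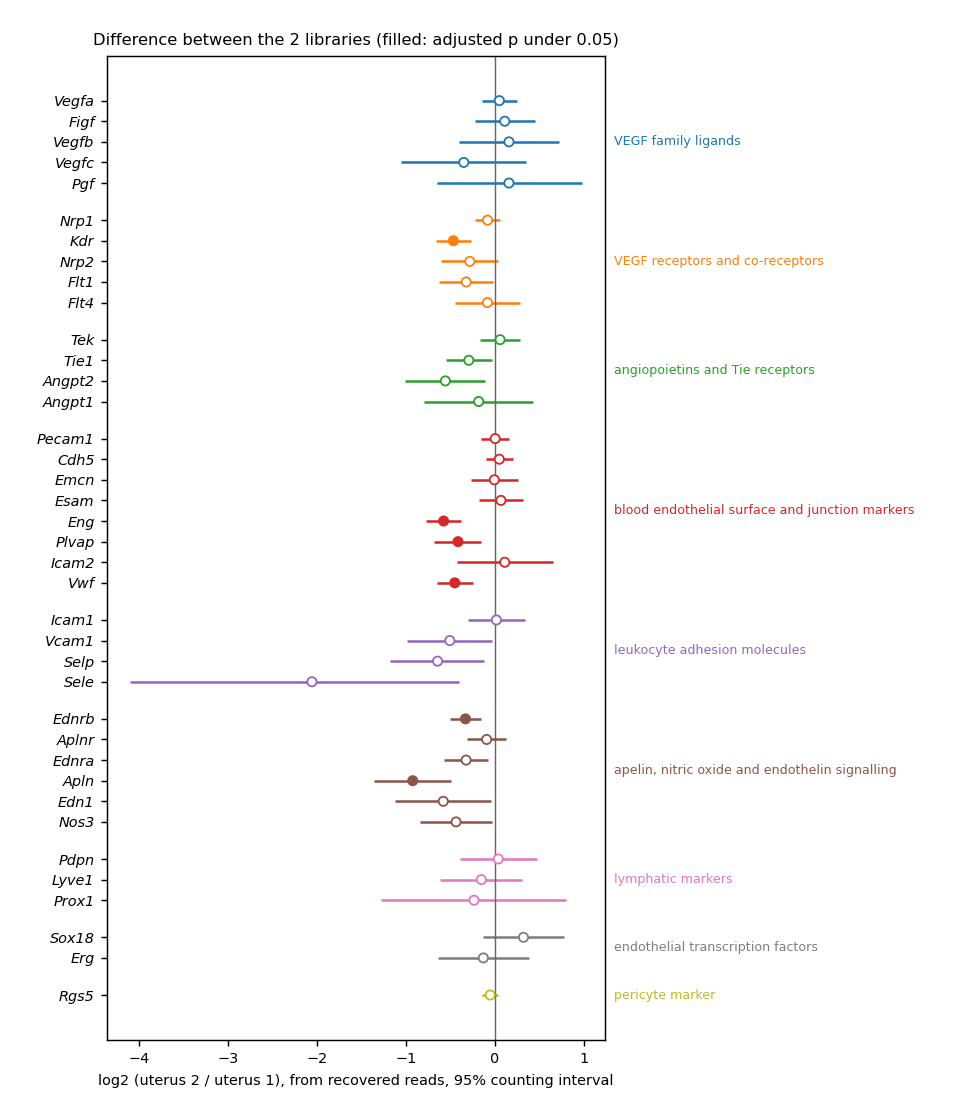
Log2 ratio of uterus 2 over uterus 1 for the 38 members with reads, from recovered reads, with 95% counting intervals (lines). Filled points are the 6 with an adjusted p under 0.05, all left of 0, and open points the rest.

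A further 9 members passed only before adjustment, all of them lower in uterus 2. They were Flt1, Tie1, Angpt2, Vcam1, Selp, Sele, Ednra, Edn1 and Nos3, with adjusted p-values from 0.124 to 0.254 in the exact test. In all, 15 of 38 members had an unadjusted p under 0.05, against 15.9% of all genes. No ligand of the VEGF family was among them, and the lowest unadjusted p in that group was 0.349, for Vegfc (exact test). For Pgf, on 25 and 31 reads, the counting interval ran from -0.65 to 0.98. The count of 15 would be lower with the smallest possible reads. The unadjusted p in the exact test was then 0.0839 for Angpt2, 0.0821 for Selp, 0.125 for Edn1 and 0.122 for Plvap.

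On the RPKM scale with a pseudocount of 0.1, none of the 37 members that averaged 1 RPKM or more was 2-fold apart, against 2.6% of all genes. Without that filter Sele was, at a log2 ratio of -1.77. Of the 37, 25 were lower in uterus 2, against 49.9% of all genes. By level, 13 of 14 between 1 and 10 RPKM were lower there (52.3% of all genes at that level), and 12 of 23 at 10 RPKM or more (47.8%). Over the 37 members the log2 ratio had a median of -0.15, and over all genes of 0.00. For the 23 members averaging 10 RPKM or more it came to 0.00, and for all genes at that level to 0.01.

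**Figure D3:**
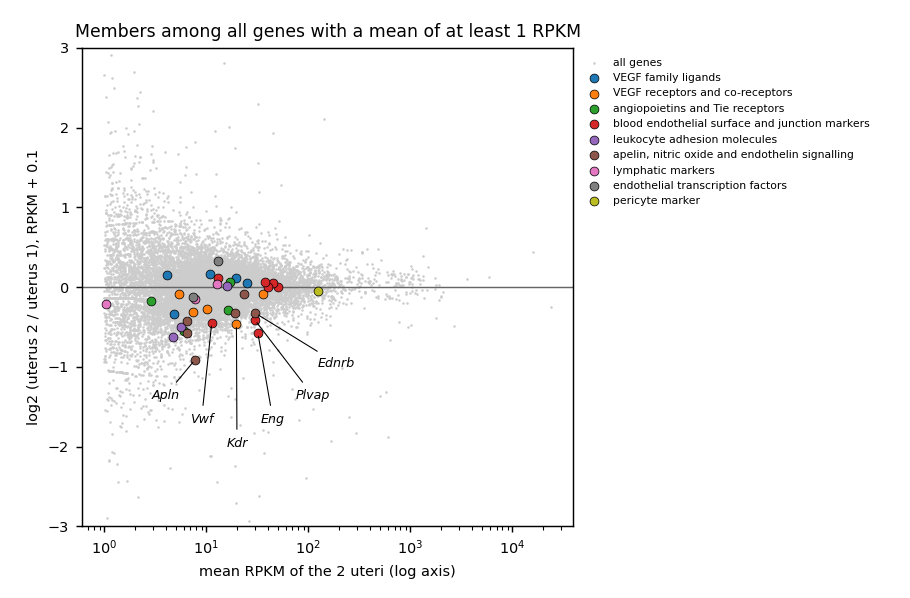
Log2 ratio of uterus 2 over uterus 1 (RPKM plus 0.1) against mean RPKM (log axis) for all genes averaging 1 RPKM or more (grey) and the 37 members (coloured by role). The 6 members that differed by the exact test are named and lie below 0 inside the cloud, and 27 genes beyond a log2 ratio of 3 in size are outside the panel.

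Base composition differed between the genes called lower and those called higher in uterus 2. Over all tested genes with a sequence (13757 genes) the median GC content of the transcript was 50.6%. Transcripts called lower in uterus 2 had a median GC content of 53.1% (360 genes with a sequence), and those called higher 47.2% (332 genes). The 6 members called lower had a median of 54.3%, from 43.5% in Ednrb to 60.6% in Plvap, and the 23 tested members with an unadjusted p of 0.05 or more had 50.8%. The 15 members with an unadjusted p under 0.05, the 6 included, had a median of 49.4%. The part of GC content in the result was not tested.

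Other genes of the same pathways were read from fixed lists, and their calls stand beside 4.92% over all genes. The cells of the whole uterus behind their levels were not told apart. In the list of other endothelial transcription factors all 14 were detected, led by Nr2f2 (venous identity) at 57.8 RPKM on average, Sox17 (arterial identity, and epithelium) at 50.1 RPKM and Ets2 at 40.95 RPKM. In that list 1 gene differed by the exact test, Tal1, at 2.82 and 1.24 RPKM. All 25 other surface, junction and enzyme genes were detected. Ctla2a, a cathepsin inhibitor gene, lay far above the rest at 1497 ± 186 RPKM (SD, n = 2), followed by Cd34 at 156 RPKM and Cav1 at 122 RPKM. Cd93 and Ptprb were lower in uterus 2 and Ctla2a and Cd36 higher by the exact test. Cldn5, the main claudin of blood endothelium and no member by its symbol, lay at 11.1 and 8.79 RPKM.

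Of 10 other lymphatic genes 6 were detected and none differed by the exact test. Gja1, which many uterine cells express, lay at 62.3 RPKM, Itga9 at 12.7 RPKM and Mmrn1, a multimerin of lymphatic endothelium, at 7.08 RPKM. Foxc2, the lymphatic valve factor, lay at 0.479 and 0.345 RPKM, and the lymphatic chemokine Ccl21a was listed at 0. Among the genes that sense oxygen and control VEGF, 7 of 8 were detected. Hif1a was higher in uterus 2, at 102.7 and 122.1 RPKM, and Epas1 (HIF-2 alpha), the form prominent in endothelium, was lower, at 33.9 and 24.4 RPKM. Egln2, an oxygen-dependent prolyl hydroxylase, lay at 31.8 RPKM on average.

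All 13 angiogenesis inhibitors and Notch genes were detected. Col18a1, the source of endostatin, led at 181 and 152 RPKM, and Thbs1, thrombospondin-1, lay at 41.3 and 35.6 RPKM. These 2 were the list's calls, both lower in uterus 2. Adamts1 lay at 71.7 RPKM and Timp3 at 48.5 RPKM on average. The tip cell ligand Dll4 lay at 3.48 and 3.61 RPKM. Of the 14 matched converting enzymes and ligand partners 12 were detected. By the mean of the 2 uteri they were led by Angptl4 (37.0 and 51.7 RPKM), Ramp2 at 40.01 RPKM and Ddah2 at 38.9 RPKM. In uterus 1 alone Ddah2 was the highest, at 38.8 RPKM. Angptl4 was higher in uterus 2 and Ece1, which cleaves endothelin precursors, lower, at 32.7 and 26.4 RPKM. Edn2 was listed at 0, while Edn3 lay at 4.14 and 5.15 RPKM.

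Of 8 other pericyte genes, all detected, 4 differed by the exact test, each lower in uterus 2, where 2.63% of all genes were called lower. Among genes with 100 reads or more in each library, as these 4 had, 8.18% were called in either direction. The 4 were Anpep at 111 and 85.0 RPKM, Pdgfrb at 39.7 and 32.1 RPKM, Notch3 at 20.6 and 13.2 RPKM and Cspg4 at 10.4 and 7.94 RPKM. Anpep and Pdgfrb are also made by stroma. The potassium channel genes Kcnj8 and Abcc9 lay at 17.3 and 18.7 RPKM and at 13.3 and 12.7 RPKM, and Rgs5 did not pass the test (exact test, adjusted p 0.662). In these lists, genes that differed by the test but were not among the 3 highest (Tal1, Cd93, Ptprb, Cd36, Thbs1, Ece1, Notch3 and Cspg4) and Cldn5, Foxc2, Dll4, Edn3 and Abcc9 were named after their values were seen.

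**Figure D4:**
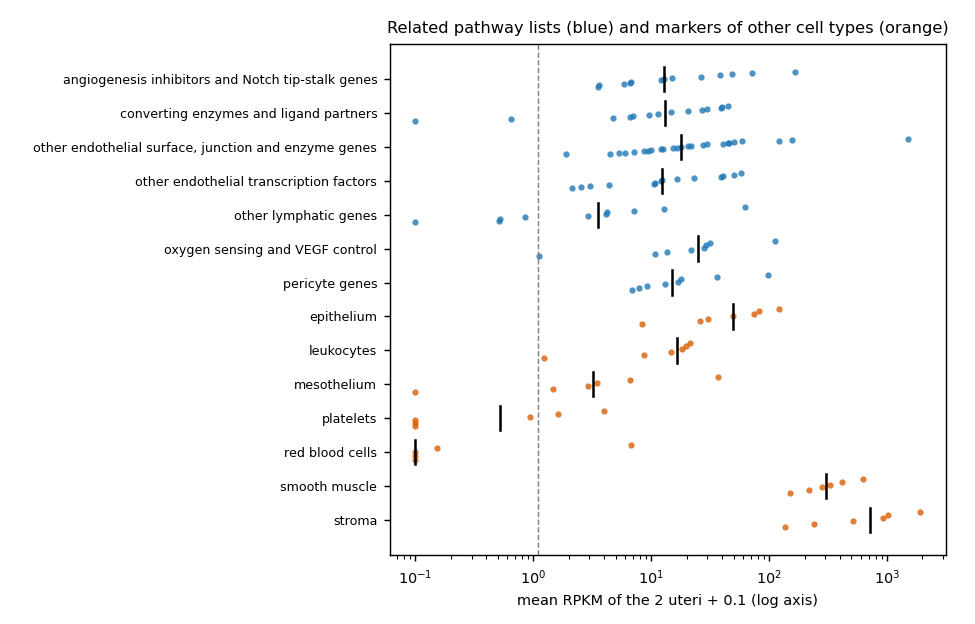
Mean RPKM of the 2 uteri plus 0.1 (log axis) for each gene of the related pathway lists (blue) and of the markers of other cell types (orange), with the median of each list as a black bar and a dashed line at 1 RPKM. The vertical place of a point within its row has no meaning. By list median, stroma and smooth muscle markers lie highest and platelet and red blood cell markers lowest, and the highest pathway gene is Ctla2a at 1497 RPKM.

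Markers of other cell types were set beside these differences. The 6 stroma markers summed to 4904 and 4613 RPKM, but 4 of the 6 were higher in uterus 2. Col3a1 lay at 1908 and 1939 RPKM, Col1a1 at 1184 and 851 RPKM and Col1a2 at 988 and 857 RPKM, and Dcn, named after its values were seen, at 456 and 578 RPKM. By the exact test Col1a1 and Col1a2 were lower in uterus 2 and Dcn was higher. The 6 smooth muscle markers summed to 2025 and 2017 RPKM, the 7 epithelial markers to 380.9 and 400.9 RPKM, the 6 leukocyte markers to 80.8 and 86.2 RPKM, and the 6 mesothelial markers to 51.3 and 50.01 RPKM. By the exact test Acta2 (653 and 592 RPKM) and Cldn4 (11.4 and 5.19 RPKM) were lower in uterus 2, and Myh11 (314 and 350.1 RPKM) and Krt18 (70.4 and 94.3 RPKM) higher, with Cldn4 named after its values were seen. All of the stroma, smooth muscle and epithelial markers were detected, as were 5 of 6 leukocyte and 5 of 6 mesothelial markers (Krt14 was listed at 0). Of 6 platelet markers 2 were detected, with sums of 7.91 and 4.57 RPKM. Pf4 lay at 5.77 and 1.998 RPKM on 13 and 5 reads (exact test, adjusted p 0.332), Itga2b at 1.67 and 1.37 RPKM, and Ppbp, Gp9 and Gp6 were listed at 0. Gp1ba lay at 0.478 and 1.21 RPKM. The platelet sum was lower in uterus 2, as were Vwf and Selp, which platelets also carry. Pecam1, which platelets carry too, was not lower, at 50.7 and 50.9 RPKM. The part of platelets in the results for these genes was not tested. Of 5 red blood cell markers only Alas2 was detected, at 6.85 and 6.53 RPKM, with Hba-a1 and Hbb-b1 listed at 0.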

How the data were processed

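RNA was extracted from whole uterus with TRIzol, and 1 microgram of RNA went into each TruSeq library, per the labels' protocols, after poly-A selection, per the series' design text. The authors deposited RPKM values, 1 column per library. The submitters' processing notes name TopHat, edgeR and the build mm9 without versions or roles. The counting program and its use of strand are not given in the sources used here.

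Reads were recovered with Python 3.11.15 and SciPy 1.17.1. Single-exon genes of known length gave scaling totals of 3834174 and 4256101. With these, every value above 0 (16719 and 16811 genes) was a whole number of reads over a whole length, within a relative tolerance of 1e-11. A factor shared by reads and length was chosen by closeness to GENCODE M1 lengths, and 30 of the 38 members with reads had one near. For the other 8 (Kdr, Ednrb, Emcn, Figf, Flt4, Icam2, Pgf and Tie1) reads may be off by a whole factor. All but Emcn are given at the smallest reads their values allow, so their true reads may be more and their intervals narrower. Recovered reads summed to 3844355 and 4270881. Intervals cover counting error only.

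Detection was set at 1 RPKM in both uteri. Log2 ratios on the RPKM scale used a pseudocount of 0.1, which understates changes of low genes. The exact binomial test ran on genes with at least 6 reads in sum. The scripts were tested on simulated data. Windows and coordinates are on NCBIM37, which is mm9, with deposited starts counted from 0 and printed from 1. All matched members are named, and of every other list the 3 highest genes, genes 2-fold apart at a mean of 10 RPKM, and genes at 0. A few items are not reported here. The members, lists and tests were chosen with earlier results of these data known. The series' design text gives each library its own mouse, and no p-value here measures the spread between animals.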

Additional observations from a re-analysis of the deposited data

Results flagged for a closer look

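A row outside the main table held reads at a microRNA locus of endothelial cells. The Mir126 hairpin, which lies within the endothelial gene Egfl7, held 1 read in uterus 1 and 6 reads in uterus 2, the latter above the 3 reads that a count of 0 allows. Egfl7 itself lay at 44.9 and 43.8 RPKM on 280 and 303 reads. The rows of short hairpins were not used in any comparison, and reads of the host transcript and of the hairpin were not told apart.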

How the results depend on the processing

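Among 197 repeated values, 2 counts moved by more than 1.5 times, 1 level by more than 1 SD, and 1 call was lost. A mean of 2 libraries cannot move by more than 1 SD when either is left out, so that says nothing about stability: Sele averaged 0.833 RPKM and lay at 0.323 RPKM without uterus 1 and 1.34 RPKM without uterus 2. Adjusted p-values of members without a call moved too, and with the smallest possible reads those of Angpt2, Selp and Edn1 were 0.456, 0.452 and 0.548 (exact test) in place of 0.159, 0.154 and 0.241. Detection fell to 21 members at 10 RPKM by construction and stayed at 36 to 38 under the other settings run, with either library left out included. The lymphatic median became 10.2 RPKM in place of 7.70 without Prox1, which was under the threshold in uterus 2. Without a filter 1 member, Sele, was 2-fold apart. The exact binomial test gave 5 or 6 members, all lower in uterus 2, under each setting run, and the 1 lost call was Plvap with the smallest possible reads, while Apln, with 72 reads in uterus 2, is left out at 100 reads or more in both, a bound added after seeing the data. The median log2 ratio of the members ran from -0.15 to 0.00, the latter at a mean of 10 RPKM. Depth limits what can be seen, since 21 of the 38 members with reads had 100 or more in both libraries. No paired analysis was possible because all samples belong to 1 group.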
